A study of Homo sapiens with 42 samples.

Results

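The S100 calcium-binding genes described here are S100A4, S100A6, S100A8, S100A9, S100A10, S100A11 and S100A12. They were chosen by gene symbol, and they are 7 of the 58721 genes counted in a study of MS41, a degrader of the chromatin reader ENL (gene MLLT1). All 7 are listed in each of the 4 count tables, and 6 of them had enough counts for testing in MV4;11 cells. RNA of 42 libraries in 15 groups was sequenced from the human leukaemia lines MV4;11 and SEMK2, which both carry a fusion of MLL with AF4. Wild-type MV4;11 cultures, a myeloid line, received 100 nM MS41, 100 nM MS41N, 100 nM PFI-6 or DMSO and were sampled after 6 or 24 h, each group being 3 libraries. PFI-6 inhibits the YEATS domain through which ENL reads acylated histones; the role of MS41N is not stated in the labels. MV4;11 cells carrying ENL guide 1 or ENL guide 2 (labelled ENL KO) or a control guide (labelled WT) gave 2 libraries each. Wild-type SEMK2 cultures, a B-cell precursor line, received MS41 or DMSO (3 libraries each), and wild-type MV4;11 cells from an in vivo experiment came from MS41 or vehicle treatment (3 libraries each). The labels give the SEMK2 dose as 100 nM but not which time applied. They give no dose, time or host for the in vivo libraries, which were made with a low-input kit, and do not say whether the guide cells were clones or pools. In units of 1000000 counts, library totals were 102.35 to 156.48 in the compound table, 155.91 to 230.64 in SEMK2, 77.22 to 87.81 in the guide table and 99.49 to 126.74 in vivo. Nothing in the labels says that replicates were separate cultures or animals, so p-values measure the spread between these libraries, which may be technical.

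S100 proteins are small proteins that bind calcium through EF-hand motifs and then expose a surface that grips partner proteins. Most work as dimers inside the cell, and several are also released and act on receptors of other cells. S100A8 and S100A9 together form calprotectin, an abundant cytosolic protein of neutrophils and monocytes, and S100A12 is a related alarmin of the same cells. S100A10 binds annexin A2 and carries membrane cargo and plasminogen activity, S100A11 binds annexin A1, S100A4 binds non-muscle myosin, and S100A6 (calcyclin) binds CACYBP.

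The genes lie together on chromosome 1 of GRCh38, in the epidermal differentiation region of band 1q21. S100A10 (ENSG00000197747, 151982915 to 151994390, minus strand) and S100A11 (ENSG00000163191, 152032506 to 152047907, minus strand) sit at its lower-coordinate end. S100A9 (ENSG00000163220, 153357854 to 153361027, plus strand), S100A12 (ENSG00000163221, 153373706 to 153375649, minus strand) and S100A8 (ENSG00000143546, 153390032 to 153391188, minus strand) form a group 33.3 kb long. S100A6 (ENSG00000197956, 153534599 to 153536244, minus strand) and S100A4 (ENSG00000196154, 153543613 to 153550136, minus strand) follow in a stretch of 15.5 kb, with S100A5 between them. No exon of a member overlaps an exon of another gene in the annotation used, although S100A3 lies within the span of S100A4 on the same strand.

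The 250 bases before the annotated start of the 3 calprotectin-type genes are shown because the main results turn on these genes. They are given 5′ to 3′ on the gene's own strand, from RefSeq on GRCh38.p14: S100A8 from chr1:153391189-153391438 (minus), S100A9 from chr1:153357604-153357853 (plus) and S100A12 from chr1:153375622-153375871 (minus). Capitals mark the C/EBP core letters GCAAT, on either strand, and the TATA box letters TATAAA, on either strand.
S100A8: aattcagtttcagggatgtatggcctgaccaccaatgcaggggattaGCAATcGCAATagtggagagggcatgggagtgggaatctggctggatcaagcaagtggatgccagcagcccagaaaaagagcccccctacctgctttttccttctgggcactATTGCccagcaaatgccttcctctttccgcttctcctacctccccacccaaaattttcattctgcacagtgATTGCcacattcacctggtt
S100A9: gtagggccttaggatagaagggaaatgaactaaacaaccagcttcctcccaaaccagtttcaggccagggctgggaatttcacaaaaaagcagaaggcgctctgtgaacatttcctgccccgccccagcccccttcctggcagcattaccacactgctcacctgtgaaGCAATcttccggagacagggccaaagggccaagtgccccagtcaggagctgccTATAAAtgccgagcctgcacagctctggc
S100A12: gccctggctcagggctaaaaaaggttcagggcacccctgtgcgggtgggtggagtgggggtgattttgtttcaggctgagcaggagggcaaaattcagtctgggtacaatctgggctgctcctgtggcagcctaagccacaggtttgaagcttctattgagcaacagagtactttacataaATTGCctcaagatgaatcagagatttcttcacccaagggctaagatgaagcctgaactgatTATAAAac

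C/EBP factors drive myeloid maturation, and their core letters stood 4 times before this S100A8 start, 1 time before S100A9 and 1 time before S100A12. The windows of the 2 other RefSeq starts of S100A8 held them 1 and 2 times. The letters TATAAA stood before the S100A9 start, beginning 29 bases upstream, and before the S100A12 start, beginning 8 bases upstream. They were not in the S100A8 window printed here, but both other windows of S100A8 held them, beginning 126 and 29 bases upstream of those starts. Across all 35116 promoter windows of the same length, 21.3% held GCAAT and 10.7% held TATAAA. The windows of S100A6, S100A10 and S100A11 held neither, and that of S100A4 held TATAAA alone. Annotated exons of S100A genes filled all 250 bases of the S100A6 and S100A10 windows. They took 79 bases of the S100A4 window, 31 of S100A11, 28 of S100A12 and 0 of S100A9 and of the printed S100A8 window. In the windows of the 2 other S100A8 starts they took 148 and 115 bases. GAGGAA, the core letters of PU.1, are in 23.6% of all windows and were in those of S100A9 and, at 2 of its 3 starts, S100A8. TTCNNNGAA (STAT factors, 6.57% of windows) and CACGTG (E-box, 6.34%) were in no member's window. These are matches of letters on either strand, not measured binding.

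Levels were compared between genes as CPM per kb, that is, counts per 1000000 TMM-scaled counts (CPM) divided by the kilobases of annotated exon. In MV4;11 cells after 24 h of DMSO, S100A4 stood at 137 ± 3.1 and S100A11 at 131 ± 2.0 CPM per kb (SD, n = 3). S100A6 was at 17.2 ± 0.61 and S100A10 at 13.9 ± 0.90 CPM per kb. S100A9 was at 1.00 ± 0.26 and S100A8 at 0.903 ± 0.31 CPM per kb, a difference within their SD. The calprotectin genes were thus the lowest of the 6 in these cells, and S100A12 had no count in any DMSO library. The order of S100A4 and S100A11 turned with time: after 6 h of DMSO, S100A4 was at 125 ± 3.8 and S100A11 at 141 ± 3.7 CPM per kb. That order also rested on the length used, since division by the longest transcript put S100A4 first at both times.

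After 24 h of MS41, all 6 tested members were higher than in DMSO (edgeR quasi-likelihood test, Benjamini-Hochberg adjusted p below 0.05), and in all 6 the MS41 libraries lay above every DMSO library. Among all 22711 genes tested, 21.4% were called higher, and 50.2% had groups that did not overlap in either direction. The members' median change was 0.76 on the log2 scale, against 0.02 over all tested genes. In bulk libraries more cells of a type and more RNA per cell cannot be told apart.

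The calprotectin pair changed most. S100A8 had 2.56, 3.28 and 3.30 CPM with MS41, against 0.665, 0.357 and 0.721 CPM with DMSO, from 335, 446 and 399 counts with MS41 and 78, 43 and 100 counts with DMSO. All 3 MS41 libraries were well above all 3 DMSO libraries, with a log2 change of 2.38 (SE 0.20, adjusted p = 4.96e-14). S100A9 had 2.28, 2.2 and 2.29 CPM with MS41, against 0.554, 0.738 and 0.447 CPM with DMSO. The MS41 libraries were close to one another and above all DMSO libraries, and the log2 change was 1.96 (SE 0.19, adjusted p = 4.51e-12). Both genes stayed low in absolute terms, at 4.74 ± 0.65 (S100A8) and 3.91 ± 0.086 CPM per kb (S100A9) with MS41.

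S100A10 and S100A11 are the annexin-binding members. S100A10 had 32.9, 32.0 and 30.8 CPM with MS41, against 17.3, 18.6 and 16.3 CPM with DMSO. Its log2 change was 0.87 (SE 0.05, adjusted p = 8.89e-19). S100A11, which also plays a part in keratinocyte growth control, had 108, 120 and 111 CPM with MS41, against 79.1, 76.8 and 77.4 CPM with DMSO. The groups were apart for both genes, and the log2 change of S100A11 was 0.54 (SE 0.03, adjusted p = 8.53e-19). Counts of its pseudogenes S100A11P1 and S100A11P2 did not exceed 17 in any library.

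S100A4 had 172, 188 and 173 CPM with MS41, against 114, 116 and 111 CPM with DMSO, a log2 change of 0.64 (SE 0.03, adjusted p = 1.64e-22). S100A6 had 20.7, 22.7 and 20.8 CPM with MS41, against 13.99, 14.8 and 15.0 CPM with DMSO, a log2 change of 0.55 (SE 0.06, adjusted p = 3.43e-11). For both genes, and for S100A11, replicate 2 was the highest MS41 library. With MS41 S100A4 stood at 215 ± 11 CPM per kb and S100A6 at 25.3 ± 1.3.

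At 6 h, 1 of the 6 tested members was higher with MS41 and 0 were lower, where 12.2% of all tested genes were higher. S100A10 was that gene, with 24.1, 23.0 and 24.3 CPM in MS41 libraries, against 20.3, 23.4 and 20.4 CPM in DMSO libraries. The groups overlapped, since DMSO replicate 2 lay above MS41 replicate 2, and the log2 change was 0.16 (SE 0.05, adjusted p = 0.0215). The call was lost without DMSO replicate 1 or 3, or without MS41 replicate 1 or 3 (adjusted p = 0.0711 to 0.166). S100A4 was at 0.08 (adjusted p = 0.0546), S100A8 at 0.27 (95% interval -0.13 to 0.67) and S100A9 at 0.25 (-0.11 to 0.61). S100A11 was at -0.06 (-0.12 to 0.01) and S100A6 at -0.02 (-0.14 to 0.10).

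The effect of MS41 was larger at 24 h than at 6 h for all 6 tested members, by the test of that difference itself; 11.9% of all tested genes were called in this direction. The difference between times was 2.12 on the log2 scale for S100A8 (SE 0.28, adjusted p = 4.64e-08) and 1.71 for S100A9 (SE 0.26, adjusted p = 9e-07). It was 0.72 for S100A10, 0.60 for S100A11, 0.57 for S100A6 and 0.57 for S100A4.

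**Figure D1:**
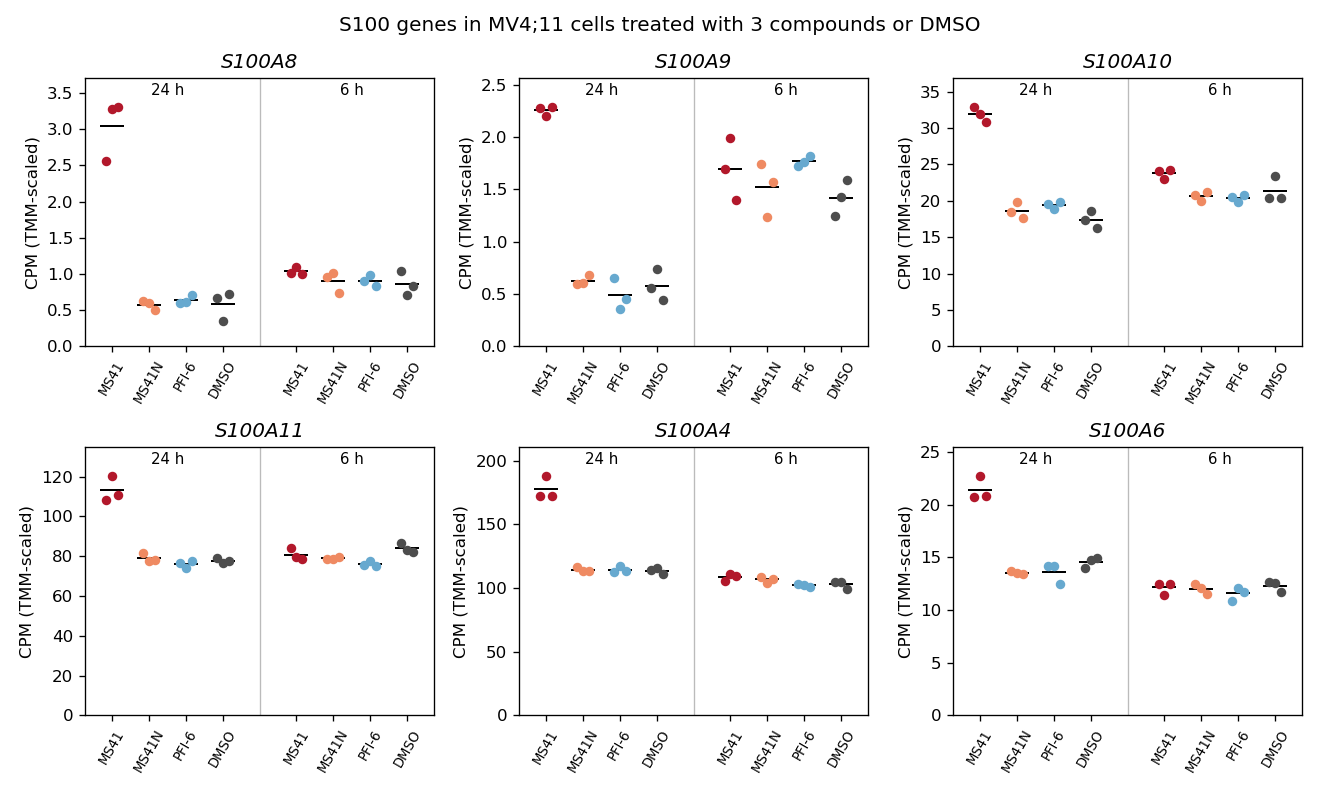
Level of 6 S100 genes (TMM-scaled CPM, linear axes from 0) in each MV4;11 library, at 24 h on the left and 6 h on the right of each panel; points are libraries and bars are group means (n = 3). At 24 h the 3 MS41 libraries of each gene lie above all other libraries of that time, for S100A8 at 2.56 to 3.30 CPM with MS41 and 0.357 to 0.721 CPM with DMSO.

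The DMSO cells also differed between the times, and these libraries are part of that contrast. S100A9 had 0.554, 0.738 and 0.447 CPM at 24 h, against 1.24, 1.42 and 1.59 CPM at 6 h, a log2 change of -1.30 (SE 0.19, adjusted p = 5.27e-07). S100A8 was also lower at 24 h (-0.56, adjusted p = 0.0337), as were S100A10 (-0.30, adjusted p = 1.54e-05) and S100A11 (-0.11, adjusted p = 0.00731), where 13.5% of all tested genes were lower. The S100A8 call was lost without DMSO 6 h replicate 1 (-0.41) or replicate 3 (-0.58), or without DMSO 24 h replicate 2 (-0.31); that of S100A11 was lost without DMSO 6 h replicate 1 (-0.09). S100A4 (0.14, adjusted p = 0.000245) and S100A6 (0.24, adjusted p = 0.00106) were higher at 24 h, where 16.7% of all tested genes were higher. For S100A9 the MS41 mean of 2.25 ± 0.050 CPM at 24 h stood against 1.69 ± 0.30 CPM with MS41 at 6 h; that difference was not tested.

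The other compounds were given at the same dose and times, and MS41 was set against each of them, in 4 comparisons over both times, and each of them against DMSO. Comparisons with DMSO share the same DMSO libraries, and those with MS41 share the same MS41 libraries. With MS41N, 0 of the 6 tested members were called at 24 h, where edgeR called 0.0352% of all tested genes, and 0 at 6 h (0.321%). The smallest adjusted p was 0.594 at 24 h and 0.374 at 6 h. DESeq2 also called 0 at both times, with no adjusted p for S100A8 at 24 h. At an unadjusted p below 0.05 edgeR had 0 members at 24 h and 1 at 6 h, S100A11 (-0.09, unadjusted p = 0.00993). Of all 22711 tested genes, 2158 were below that level at 24 h and 1836 at 6 h. The 24 h interval of the MS41N change was -0.44 to 0.43 for S100A8 and -0.30 to 0.54 for S100A9, and -0.05 to 0.07 for S100A4. The depth therefore bounded a change of S100A4 far more closely than one of the calprotectin genes.

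MS41 was higher than MS41N at 24 h for all 6 tested members (20.5% of all tested genes). S100A8 had 2.56, 3.28 and 3.30 CPM with MS41, against 0.631, 0.596 and 0.508 CPM with MS41N, a log2 difference of 2.39 (SE 0.20, adjusted p = 5.05e-14). S100A9 differed by 1.84 (SE 0.19), S100A10 by 0.78, S100A6 by 0.66, S100A4 by 0.63 and S100A11 by 0.52, with adjusted p between 3.63e-22 and 2.21e-11. At 6 h S100A10 alone was called (0.20, adjusted p = 0.00258; 10.1% of all tested genes were higher). S100A8 differed by 0.20 with an interval of -0.19 to 0.60, and S100A9 by 0.15 with an interval of -0.21 to 0.51.

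PFI-6 left most members near DMSO. At 24 h 1 of 6 was higher, where 5.57% of all tested genes were higher: S100A10 had 19.5, 18.9 and 19.8 CPM with PFI-6, against 17.3, 18.6 and 16.3 CPM with DMSO. The groups did not overlap, and the log2 change was 0.16 (SE 0.05, adjusted p = 0.0437). This call was lost without any 1 of 5 of the 6 libraries, PFI-6 replicate 1, 2 or 3 and DMSO replicate 1 or 3 (adjusted p = 0.0684 to 0.291). At 6 h 1 of 6 was lower, where 1.39% of all tested genes were lower: S100A11 had 75.7, 77.4 and 75.0 CPM with PFI-6, against 86.4, 83.1 and 82.3 CPM with DMSO. Its log2 change was -0.14 (SE 0.03, adjusted p = 0.0129), and the call was lost without DMSO replicate 1 or PFI-6 replicate 3. For S100A8 the PFI-6 change at 24 h was 0.13 with an interval of -0.30 to 0.56, and for S100A9 it was -0.24 with an interval of -0.67 to 0.19.

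MS41 exceeded PFI-6 at 24 h for all 6 tested members (20.7% of all tested genes). S100A8 differed by 2.25 on the log2 scale (SE 0.20), S100A9 by 2.21 (SE 0.19), S100A10 by 0.71, S100A6 by 0.65, S100A4 by 0.63 and S100A11 by 0.57, with adjusted p between 3.73e-22 and 3.51e-13. At 6 h 2 of 6 were called higher, where 9.35% of all tested genes were higher. They were S100A10 (0.23, adjusted p = 0.000951) and S100A4 (0.09, adjusted p = 0.0275). The S100A4 call was lost without MS41 replicate 2 or 3 or PFI-6 replicate 2 or 3 (adjusted p = 0.0577 to 0.143).

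**Figure D2:**
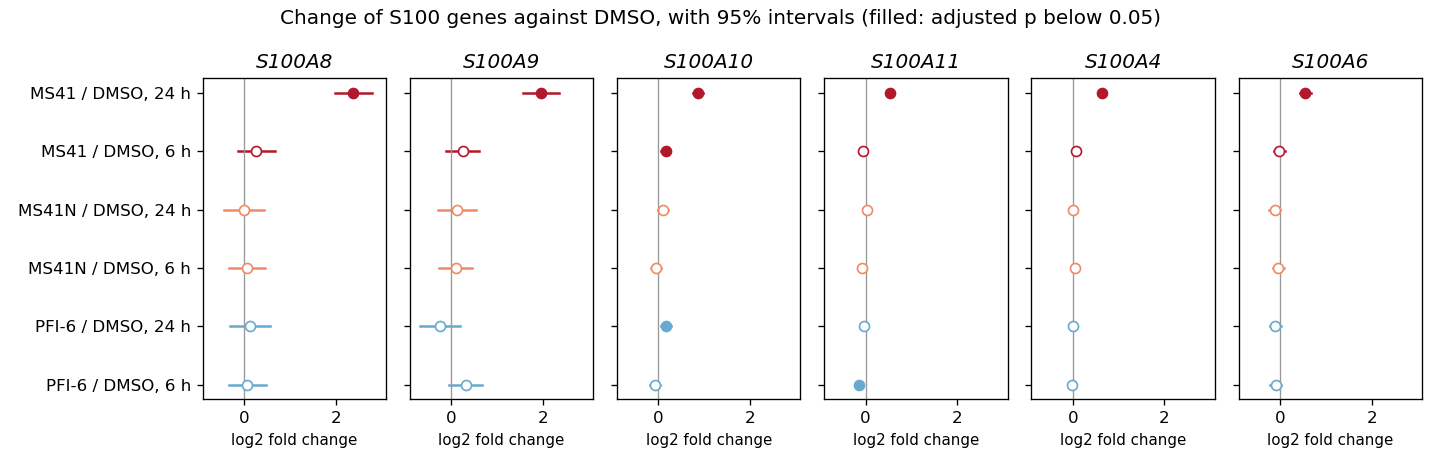
Log2 fold change against DMSO of the same time for 6 S100 genes in MV4;11 cells, with 95% intervals; filled points have an adjusted p below 0.05. The 24 h MS41 points stand apart from the others, from 0.54 for S100A11 to 2.38 for S100A8, while the MS41N and PFI-6 points lie between -0.24 and 0.32.

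S100A12 was below the filter on low counts in all tables and was not tested. It had 9, 0 and 4 counts in the MS41 libraries at 24 h and 0, 6 and 1 counts in those at 6 h. In the other 18 libraries of the compound table it had 0 counts. Counts were thus present in 4 of 6 MS41 libraries and in 0 of 18 others. One library held 9 of the 13 counts at 24 h and one held 6 of the 7 at 6 h, and 1 MS41 library of each time had no count.

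The neighbouring genes were looked at along the chromosome. Of the 90 annotated genes from S100A10 to S100A1, 15 passed the filter. Of the 10 S100A genes among them, 7 were higher with MS41 than with DMSO at 24 h and 0 lower, where 21.4% of all tested genes were higher; against MS41N 6 of the 10 were higher. The called gene outside the members was S100A13 (0.82, SE 0.26, adjusted p = 0.00886), which takes part in the release of growth factors. It had 0.719, 0.595 and 0.729 CPM with MS41, against 0.264, 0.481 and 0.404 CPM with DMSO, and the groups did not overlap. Its exons overlap those of S100A1 on the opposite strand, and the strand setting of the counting is not given in the sources used here. Of the 5 other tested genes in the window (TCHH, FLG, FLG-AS1, HRNR and SPTLC1P4), 0 were called at 24 h by edgeR, and HRNR was higher at 6 h (1.28, adjusted p = 0.0301). Their mean log2 CPM ranged from -3.69 to -1.53, too low for a close bound.

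**Figure D3:**
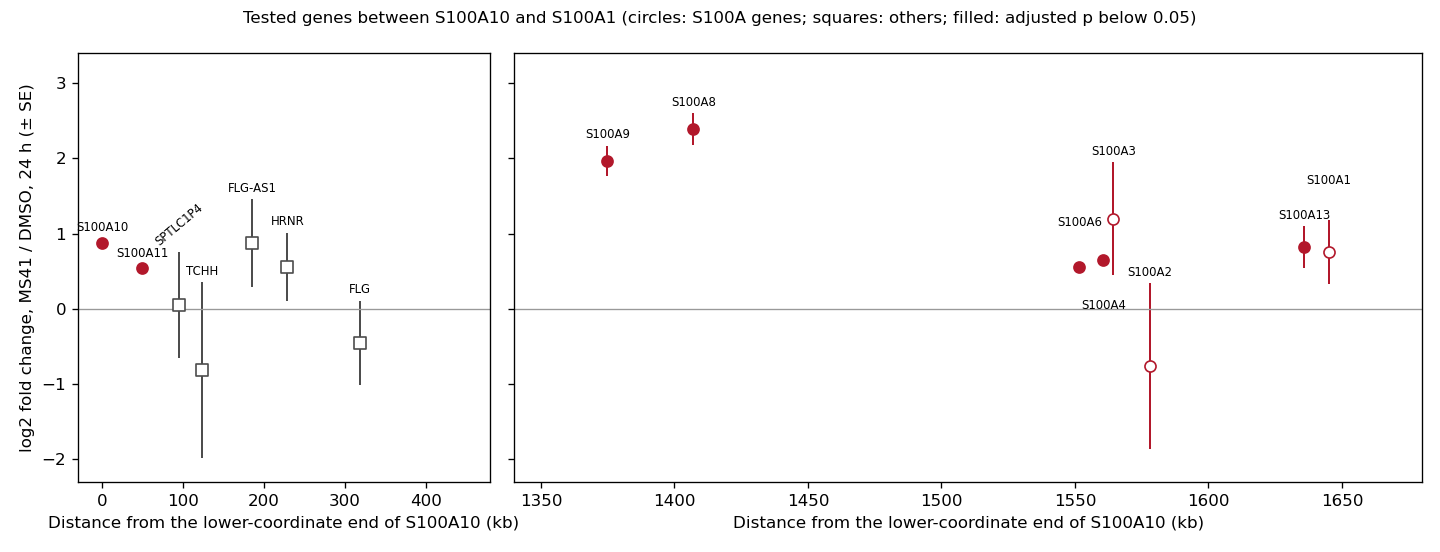
Log2 fold change with MS41 at 24 h (± SE) of the 15 tested genes between S100A10 and S100A1, by distance in kb from the lower-coordinate end of S100A10, in 2 panels with a gap between them; circles are S100A genes, squares others, and filled symbols have an adjusted p below 0.05. S100A9 (1.96) and S100A8 (2.38) are the highest of the 15 points, while the open symbols have wide errors.

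Across the family outside the members, 7 of 14 genes passed the filter in the compound table. At 24 h 2 of the 7 were higher with MS41 and 0 lower, a share near the 21.4% of all tested genes. They were S100A13 and S100B (0.53, SE 0.21, adjusted p = 0.038), a calcium sensor best known from glia. S100A1, S100A2, S100A3, S100P and S100Z were the others tested, and S100A2, S100A3 and S100Z had no more than 24 counts in any of these libraries. At 6 h the smallest adjusted p of the 7 with MS41 was 0.17.

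The partners of S100 proteins were described from a list of 24 genes, 23 of them tested. The list was chosen with earlier results of these data known, so its counts are a description only. At 24 h 15 were higher and 3 lower with MS41, where 21.4% and 22.9% of all tested genes were higher and lower; the list's median was 0.52, against 0.02 over all tested genes. CYBB, the catalytic subunit of the phagocyte oxidase, to which calprotectin delivers arachidonic acid, had the highest change of the list. It had 81.6, 84.7 and 79.1 CPM with MS41, against 1.64, 1.62 and 1.44 CPM with DMSO, a log2 change of 5.71 (SE 0.08). NCF1 (1.94) and NCF4 (0.62), which are cytosolic subunits, and the small GTPase RAC2 (0.22) were also higher. Of the annexins, ANXA1, which S100A11 binds, had 110, 114 and 113 CPM with MS41, against 19.4, 21.9 and 20.7 CPM with DMSO (2.44), and ANXA2, which S100A10 binds, was at 0.38. Of the cell surface receptors of released S100 proteins, TLR4 (1.33), CD36 (2.66), AGER (0.52) and CD33 (0.09) were higher, while BSG was lower (-0.28). TREM1 (0.83), PLAUR (0.60), the scaffold AHNAK (0.94) and MYH9, the myosin that S100A4 binds (0.14), were higher too. The S100A6 partners CACYBP (-0.51) and SUGT1 (-0.24) were lower. At 6 h 9 of the list were higher and 1 lower with MS41, where 12.2% and 13.8% of all tested genes were higher and lower. With PFI-6 at 24 h 5 were higher and 3 lower, where 5.57% and 6.78% of all tested genes were higher and lower.

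Of 10 myeloid transcription factors, all tested, 6 were higher and 3 lower at 24 h with MS41, beside 21.4% and 22.9% of all tested genes. CEBPE, a factor of late granulocyte maturation, had 78, 63 and 73 counts with MS41, against 26, 40 and 36 counts with DMSO, a log2 change of 1.03 (SE 0.30, adjusted p = 0.00436). KLF4 (0.64), CEBPB (0.37), STAT3 (0.36) and SPI1, the gene of PU.1 (0.16), were higher, and MYB (-0.59), GFI1 (-0.43) and CEBPD (-0.17) were lower. CEBPA was at 0.01 (adjusted p = 0.916).

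Markers of other cell states moved with these results. The counts that follow stand beside 21.4% of all tested genes higher and 22.9% lower. Of 7 monocyte and macrophage markers 5 were higher at 24 h with MS41 and 0 lower, and their summed level was 2687 to 2860 CPM with MS41 and 1473 to 1530 CPM with DMSO. CD14 of this list was below 0.1 CPM in DMSO cells. Of 6 mature neutrophil markers 3 were tested, and all 3 were higher; the sum was 92.4 to 93.7 CPM with MS41 and 41.9 to 45.4 CPM with DMSO. CAMP, one of these 3, had 12, 23 and 54 counts with MS41, against 3, 6 and 4 counts with DMSO. FCGR3B, LTF and MMP9 were below 0.1 CPM in both groups. Of 5 neutrophil precursor markers 1 was higher and 3 were lower, with sums of 584 to 626 CPM with MS41 and 842 to 896 CPM with DMSO. The other lists summed to 13.3 to 14.4 CPM with MS41 and 6.06 to 7.09 CPM with DMSO for T and NK cells, 9.05 to 10.0 and 7.61 to 8.35 CPM for epithelial cells, and at most 3.60 CPM in either group for B lineage, stromal and erythroid cells. NKG7 made up nearly all of the T and NK sum (13.6 ± 0.66 CPM with MS41 and 6.40 ± 0.53 CPM with DMSO, SD, n = 3), and CD3D, CD3E and CD2 were below 0.1 CPM in both groups. Mitochondrial genes took 5.86 to 7.04% of counts with MS41 and 5.20 to 5.41% with DMSO. The part of these in the S100 values was not tested.

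Genes with profiles most like each member were sought among protein-coding genes with a mean log2 CPM of at least 3, by Pearson correlation over the 24 compound libraries, which share their DMSO groups and the time difference. S100A8 was most like RNF24, LSP1 and RAB31 (r = 0.958 to 0.954), and S100A9 most like LMO7, EPB41L3 and RAB37 (r = 0.951 to 0.947). S100A10 was closest to KIT, ALOX5AP and PTPN22 (r = 0.969 to 0.967), and S100A11 to NDRG1, GNAS and CST3 (r = 0.968 to 0.965). S100A4 was closest to RNF130, HLA-DRB1 and HLA-DRA (r = 0.987 to 0.983), and S100A6 to SASH3, PSAP and NCKAP1L (r = 0.970 to 0.967). Between members r was 0.955 for S100A4 and S100A6, 0.691 for the calprotectin pair, and 0.102 for S100A6 and S100A9, which moved in opposite directions between the DMSO times.

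The guide comparison asks how loss of ENL itself bears on the genes. MLLT1 had 181 and 190 CPM with guide 1 and 123 and 127 CPM with guide 2, against 223 and 250 CPM with the control guide, a log2 change of -0.63 over both guides (SE 0.06, adjusted p = 6.41e-05). Transcript remained in all ENL guide libraries; where the guides cut is not stated in the labels. Over both guides, 3 of the 6 tested members were called higher and 0 lower, where 5.32% of all tested genes were higher. All 6 had ENL guide libraries above both control libraries, which held, in either direction, for 36.7% of all tested genes. S100A8 passed the filter on low counts through its ENL guide libraries alone, so it had to differ; over the other 5 the median change was 0.34, against -0.00171 over all tested genes.

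S100A9 had 0.950 and 0.592 CPM with guide 1 and 1.42 and 0.692 CPM with guide 2, against 0.355 and 0.240 CPM with the control guide. The log2 change over both guides was 1.59 (SE 0.38, adjusted p = 0.0218). The ENL guide libraries lay above both controls, and replicate 1 was the higher library in each guide group. S100A8 had 24 and 28 counts with guide 1 and 35 and 24 with guide 2, against 1 and 9 counts with the control guide. Its log2 change was 2.33 (SE 0.63, adjusted p = 0.036), and its call adds no support. Without it, 2 of 5 members were called. The S100A8 call was lost without control replicate 1, guide 1 replicate 2, guide 2 replicate 1 or guide 2 replicate 2, with a change of 1.43 without control replicate 1. Without control replicate 2 it was called, with a change of 4.63. The S100A9 call was lost without control replicate 2 (1.35) or guide 2 replicate 1 (1.28).

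S100A11 had 157 and 158 CPM with guide 1 and 154 and 141 CPM with guide 2, against 119 and 121 CPM with the control guide. Its log2 change was 0.34 (SE 0.06, adjusted p = 0.00334). S100A10 had 33.5 and 32.2 CPM with guide 1 and 33.2 and 45.8 CPM with guide 2, against 29.7 and 25.7 CPM with the control guide (0.38, interval 0.08 to 0.67, adjusted p = 0.106). S100A4 had 340 and 297 CPM with guide 1 and 341 and 291 CPM with guide 2, against 276 and 243 CPM with the control guide (0.29, adjusted p = 0.0594). S100A6 had 56.8 and 49.2 CPM with guide 1 and 59.7 and 51.6 CPM with guide 2, against 49.0 and 42.3 CPM with the control guide (0.25, adjusted p = 0.106). For S100A4 and S100A6 replicate 1 was the higher library in all 3 guide groups. DESeq2 called S100A4 (adjusted p = 0.0132) and S100A10 (adjusted p = 0.0152) over both guides, and edgeR with the replicate block called S100A4 (adjusted p = 0.00153) and S100A6 (adjusted p = 0.00508).

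By guide, S100A11 was called with guide 1 (0.39, adjusted p = 0.00389; 4.35% of all tested genes higher) and S100A9 and S100A11 with guide 2 (1.82 and 0.29, adjusted p = 0.0295 and 0.0281; 3.18% higher). With guide 2 the S100A9 call was lost without control replicate 2 (adjusted p = 0.152) or guide 2 replicate 1 (adjusted p = 0.227), and that of S100A11 without guide 2 replicate 1 (adjusted p = 0.246) or 2 (adjusted p = 0.0665). Both comparisons share the control libraries. Guide 2 against guide 1 gave 0 calls in edgeR among the 6 and 0% over all genes (0 members and 261 genes had an unadjusted p below 0.05; DESeq2 called 0 members). MLLT1 itself was at -0.57 in that comparison (adjusted p = 0.0856). For S100A8 the interval of the difference was -0.97 to 1.46 and for S100A4 -0.23 to 0.21. S100A12 had 0 or 1 count in each guide library.

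**Figure D4:**
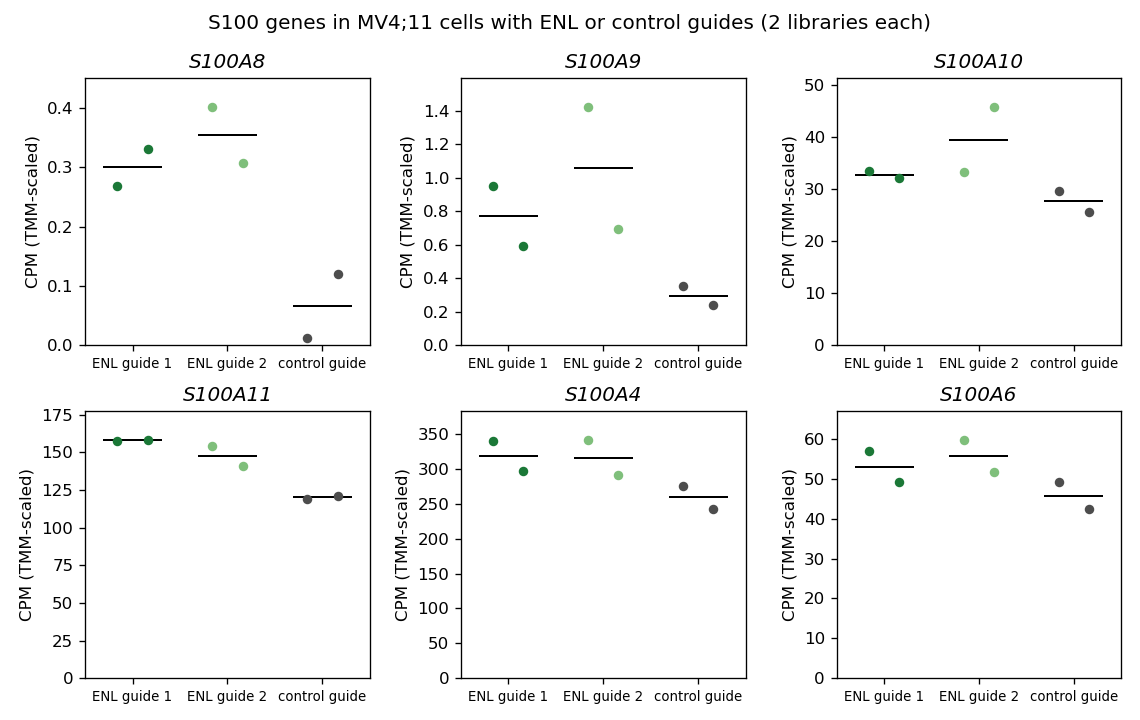
Level of 6 S100 genes (TMM-scaled CPM, linear axes from 0) in MV4;11 libraries with ENL guide 1, ENL guide 2 or the control guide; points are libraries and bars are means (n = 2). For all 6 genes the ENL guide libraries lie above both control libraries, and S100A9 spans 0.592 to 1.42 CPM with ENL guides and 0.240 to 0.355 CPM with the control guide.

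Of the partner list, 22 were tested with the guides and 8 were higher and 0 lower, where 5.32% and 4.98% of all tested genes were higher and lower. Among those higher were CYBB (2.76, SE 0.12), CD36 (1.61), ANXA1 (1.5), NCF1 (0.88), TLR4 (0.77), NCF4 (0.33) and CD33 (0.29). All 8 were among the 15 that were higher with MS41 at 24 h, which is 53.3% of the MS41 list. The list was chosen with earlier results of these data known, and the matching share over all genes is not given. The overlap therefore adds no support. CYBB had 38.4 and 42.3 CPM with guide 1 and 34.6 and 43.2 CPM with guide 2, against 6.38 and 5.30 CPM with the control guide. The monocyte and macrophage markers summed to 1558 to 1816 CPM with guide 1 and 1476 to 1542 CPM with guide 2, against 493 to 709 CPM with the control guide, and 3 of 6 tested were higher. The mature neutrophil markers summed to 130 to 140 CPM with guide 1 and 124 to 126 CPM with guide 2, against 73.3 to 74.2 CPM with the control guide. Of these, CSF3R (0.95) and CXCR2 (0.36) were higher, and MMP9 was at 0.39 (adjusted p = 0.696). CAMP, FCGR3B and LTF were below 0.1 CPM in each of these groups. The neutrophil precursor markers summed to 2218 to 2445 CPM with guide 1 and 2230 to 2498 CPM with guide 2, against 2282 to 2284 CPM with the control guide. The T and NK sum, nearly all NKG7, was 55.1 to 57.4 CPM with guide 1 and 46.4 to 56.3 CPM with guide 2, against 34.7 to 37.5 CPM with the control guide. Mitochondrial genes took 4.18 to 4.66% of counts with guide 1 and 3.82 to 4.63% with guide 2, against 3.19 to 3.58% with the control guide. Of the 10 transcription factors 9 were tested: KLF4 was higher (0.75), MYB (-0.34) and GFI1 (-0.33) were lower (5.32% and 4.98% of all tested genes were higher and lower), and CEBPE was at 0.07 (adjusted p = 0.858). The part of the markers and the mitochondrial share in the S100 values was not tested.

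SEMK2 had no calprotectin counts in 5 of 6 libraries. S100A8, S100A9 and S100A12 had 0 counts in all 3 MS41 libraries and in DMSO replicates 2 and 3, which allows up to 3 counts in a library. DMSO replicate 1 had 22 counts of S100A8 and 210 of S100A9. That library stands apart: it had 122 genes with at least 20 counts and at most 1 count in each other SEMK2 library, against 0 to 4 such genes in the others. Among them were the macrophage genes C1QC (996 counts) and TGFBI (743 counts), as well as TYROBP (393 counts) and the epithelial genes CDH1 (140 counts), EPCAM (72 counts) and KRT18 (70 counts). LYZ was not apart there (907 counts, against 811 to 1138 in the other 5), and S100B had 180 counts, against 5 to 16 in the other 5. The B lineage markers of SEMK2 summed to 1769 to 1792 CPM with MS41 and 1765 to 1868 CPM with DMSO.

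The other 4 members were expressed in SEMK2, and 0 of 4 were called by edgeR with MS41, where 1.36% of all tested genes were called. DESeq2 called 0 as well. In edgeR 1 member, S100A10, had an unadjusted p below 0.05, as did 2778 of all 21433 tested genes. S100A10 had 76.0, 72.3 and 67.5 CPM with MS41, against 67.2, 66.8 and 65.7 CPM with DMSO. The groups did not overlap, and the log2 change was 0.11 (interval 0.01 to 0.22, adjusted p = 0.339). Without DMSO replicate 1, 0 of 4 were called as well, and S100A10 was at 0.12 (adjusted p = 0.544). S100A4 was at 0.04 (-0.04 to 0.12), S100A11 at 0.03 (-0.11 to 0.16) and S100A6 at -0.07 (-0.29 to 0.15). No test of the difference from MV4;11 was made, since the lines were fitted apart.

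In vivo, 0 of the 6 tested members were called in MV4;11 cells by edgeR, where 0.0328% of all tested genes were called. In edgeR 0 members had an unadjusted p below 0.05, against 1623 of all 21337 tested genes. DESeq2 called 0 members, giving no adjusted p for S100A8 or S100A9. S100A8 had 17, 7 and 11 expected counts with MS41, against 4, 17 and 13 with vehicle, and S100A9 had 95, 64 and 53 with MS41, against 39, 97 and 116 with vehicle. The groups overlapped for all 6 genes, where 30.0% of all tested genes had groups that did not overlap. The log2 change was 0.13 for S100A8 (interval -1.64 to 1.89) and -0.15 for S100A9 (-1.10 to 0.80). For S100A10 (0.02, -0.13 to 0.17), S100A11 (-0.02, -0.20 to 0.16), S100A4 (-0.09, -0.23 to 0.06) and S100A6 (-0.08, -0.31 to 0.14) the intervals were narrower. S100A12 had 0 counts in all 6 libraries. Monocyte and macrophage markers summed to 6467 to 7720 CPM with MS41 and 6727 to 8005 CPM with vehicle. The neutrophil precursor sums did not overlap (1825 to 1888 CPM with MS41 and 2065 to 2133 CPM with vehicle). Nor did those of T and NK cells (15.9 to 17.6 CPM with MS41 and 18.5 to 20.4 CPM with vehicle). Epithelial sums were also apart (7.14 to 7.78 CPM with MS41 and 7.86 to 8.63 CPM with vehicle), while the sums of the other lists overlapped. The part of the markers in the S100 values was not tested. The deposited in vivo values are tied by replicate number. Vehicle and MS41 libraries of the same number deviated from their group means in opposite directions (correlation -0.844 to -0.762). The fit has a term for that number, which takes up shared deviations and not opposed ones. The part of this tie in the overlap of the groups and in the intervals was not tested.

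**Figure D5:**
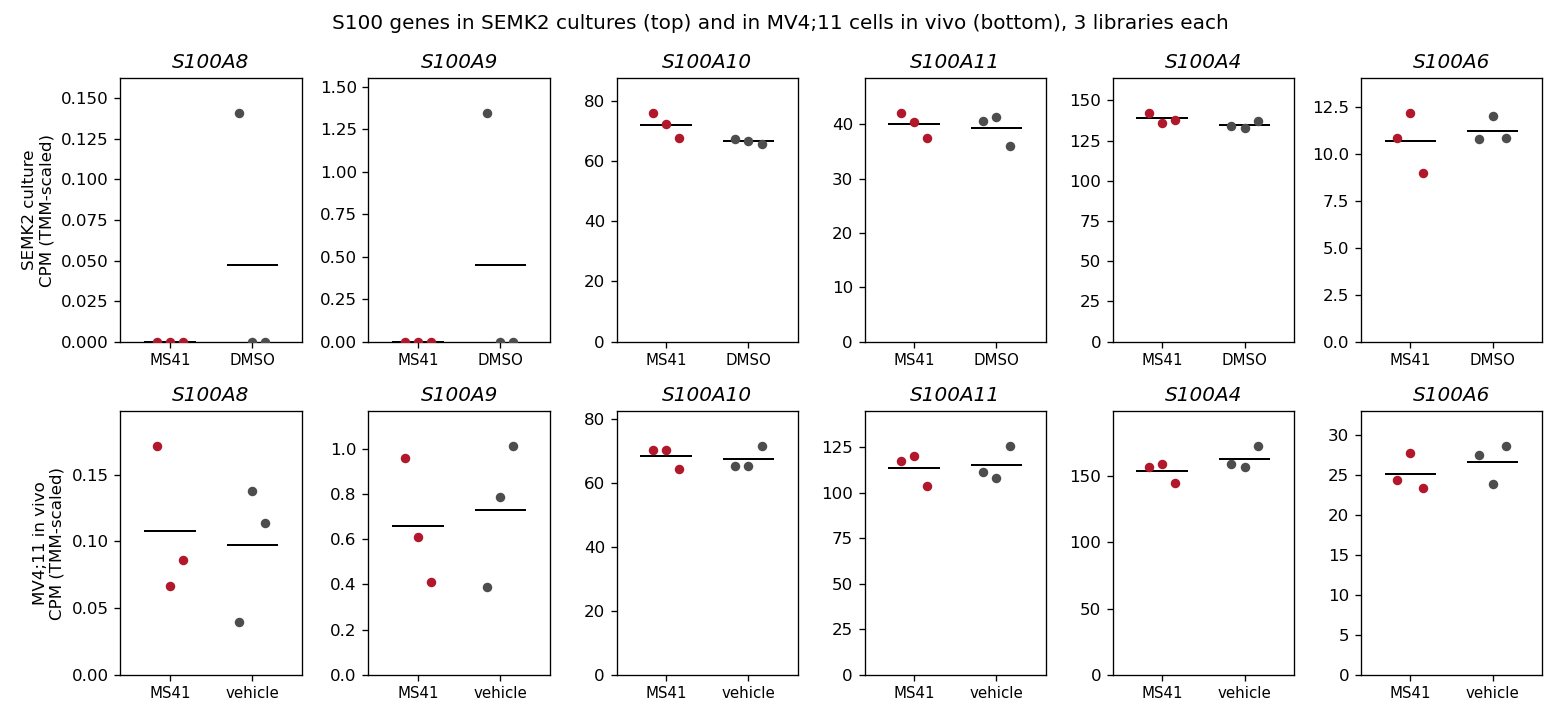
Level of 6 S100 genes (TMM-scaled CPM, linear axes from 0) in SEMK2 cultures (upper row, MS41 and DMSO) and in MV4;11 cells in vivo (lower row, MS41 and vehicle); points are libraries and bars are means (n = 3). In SEMK2 the S100A8 and S100A9 signal is in 1 DMSO library alone, and in vivo the MS41 and vehicle points overlap for all 6 genes.

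Across the tables, which were normalised apart, the place of S100A10 against S100A6 varied. S100A10 stood at 57.2 ± 3.4 CPM per kb with MS41 and 52.9 ± 0.59 with DMSO in SEMK2, above S100A6 at 12.6 ± 1.9 with MS41 and 13.3 ± 0.81 with DMSO. With the control guide in MV4;11 it stood at 22.02 ± 2.3 CPM per kb (SD, n = 2), below S100A6 at 53.9 ± 5.6. S100A4 was the most abundant member in SEMK2, at 168 ± 3.8 CPM per kb with MS41 and 163 ± 2.4 with DMSO. In vivo MV4;11 cells had S100A10 at 54.3 ± 2.8 CPM per kb with MS41 and 53.6 ± 2.9 with vehicle, and S100A11 at 191 ± 15 with MS41 and 194 ± 16 with vehicle.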

How the data were processed

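Polyadenylated RNA of 42 libraries was sequenced. The deposited values of the compound, SEMK2 and guide tables are read counts per gene, on build hg38; HISAT2 2.1.0, HTSeq 0.11.3 and CASAVA 1.8 are the tools listed, per the submitters' processing notes. The deposited in vivo values are expected counts. Over 12255 genes, the log2 levels of the vehicle and MS41 libraries with the same replicate number were averaged. That average hardly varied between replicate numbers (median SD 0.000966, against 0.0342 to 0.0552 for other matchings and 0.0178 from counting). Libraries with the same number thus deviated from their group means in opposite directions (correlation -0.844 to -0.762). Why the values are tied in this way is not given in the sources used here.

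Each table was fitted whole with edgeR 4.0.16 (R 4.3.3, limma 3.58.1): low-count filter, TMM scaling and the robust quasi-likelihood test, with Benjamini-Hochberg adjustment over all genes and a threshold of 0.05. The in vivo fit has replicate number as a block. Alternatives were RLE scaling, no filter, DESeq2 1.42.0, the replicate block, removal of a GC trend and leaving out each library. The fits were tested on simulated data. CPM is per 1000000 TMM-scaled counts. Tables and figures used Python 3.11.15, pandas 2.3.3 and matplotlib 3.10.9.

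Genes named are the 7 members, the other S100 genes, partners and factors that passed the test or the filter, and the 3 genes most like each member. Some genes of the lists are counted but not reported here by name. Members and lists were chosen with earlier results of these data known. Replicate numbers did not meet the rule for pairing (a correlation over 0.1 in every pair) in the compound, SEMK2 and guide tables. No library pair agreed within sampling noise. The 95% intervals come from the edgeR fits and include the spread between libraries. The bound of up to 3 counts, given where a library had 0 counts, covers counting error only.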

Additional observations from a re-analysis of the deposited data

Results flagged for a closer look

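The effect of MS41 against DMSO in MV4;11 cells was larger at 24 h than at 6 h for all 6 tested members. They are listed for a call in the test of the difference (edgeR quasi-likelihood, Benjamini-Hochberg), where 11.9% of all tested genes were called in this direction. The difference was 2.12 on the log2 scale for S100A8 and 1.71 for S100A9, the calprotectin pair. It was 0.72 for S100A10, 0.60 for S100A11, 0.57 for S100A6 and 0.57 for S100A4. The DMSO libraries are part of this difference. In them S100A8, S100A9, S100A10 and S100A11 were lower at 24 h than at 6 h, while S100A4 and S100A6 were higher.

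S100A12, which was too low to be tested, had 13 counts over the MS41 libraries at 24 h and 0 over the DMSO libraries of that time. In SEMK2, DMSO replicate 1 had 22 counts of S100A8 and 210 counts of S100A9, while the other 5 libraries had 0 of both.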

How the results depend on the processing

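The counts of called members stayed at 6 under all alternatives for MS41 against DMSO, MS41N and PFI-6 at 24 h and for the difference between times, and no called member changed direction under any alternative. For MS41 at 6 h (1 called), 2 were called with the replicate block and 2 with the GC trend removed, S100A4 being the gene added, and 0 to 1 with a library left out. For MS41 against PFI-6 at 6 h (2), 1 was called without the filter, 3 with the GC trend removed (S100A11 added, adjusted p = 0.0321) and 1 to 2 with a library left out. PFI-6 gave 0 to 1 at 24 h and 0 to 1 at 6 h with a library left out, and DMSO at 24 h against 6 h gave 4 to 6. In the main fits 5.32% of all tested genes were higher over both ENL guides, 4.35% with guide 1 and 3.18% with guide 2. Over both ENL guides (3), 6 were called without the filter, 4 with DESeq2 (S100A4 and S100A10 added), 5 with the replicate block and 2 to 4 with a library left out. The 3 of the main fit include S100A8, which passed the filter on low counts through its ENL guide libraries alone. For guide 1 (1), 6 were called without the filter, 2 with DESeq2, 5 with the replicate block and 1 to 2 with a library left out. For guide 2 (2), 6 were called without the filter, 3 with DESeq2 (S100A10 added, adjusted p = 0.00494), 5 with the replicate block and 1 to 3 with a library left out. The replicate number is only a shared number in those tables, with correlations of -0.04 to 0.07 in the compound table, -0.01 to 0.02 in SEMK2 and 0.02 to 0.24 with the guides. DESeq2 gave no adjusted p for S100A8 over both guides, with guide 1, with guide 2, with MS41N at 24 h or in vivo, nor for S100A9 in vivo. The cause of these differences was not tested. Over all genes, SEMK2 had 291 calls, and 912 without the filter, 760 with DESeq2, 662 with the replicate block, 962 with the GC trend removed and 100 to 2986 with a library left out, the highest without DMSO replicate 3. In vivo there were 7, and 184 without the filter, 80 with DESeq2, 523 without the replicate block and 0 to 35 with a library left out. Both guides had 1853, and 2803 without the filter, 3203 with the block and 940 to 2621 with a library left out. PFI-6 at 24 h had 2806, and 571 with the GC trend removed and 1381 to 2458 with a library left out; at 6 h it had 466, and 723 without the filter, 806 with DESeq2 and 126 to 309 with a library left out. MS41N had 8 at 24 h, and 83 without the filter, 78 with DESeq2, 5 with the GC trend removed and 0 to 9 with a library left out; at 6 h it had 73, and 182, 163, 120 and 12 to 64. In vivo, 0 members were called with and without the replicate block. Depth limits S100A8 in the guide and in vivo libraries, where it had at most 35 counts.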
